A study of Mus musculus with 12 samples.

Results

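Interleukin-6 (IL-6) signalling was followed through 5 genes: Il6, which encodes the cytokine, Il6ra, which encodes its binding receptor, Il6st, which encodes the signal-transducing chain gp130, Stat3, the transcription factor that the receptor activates, and Socs3, the feedback inhibitor that STAT3 induces. They were chosen by their gene symbols from a table of 45706 mouse genes, with their levels in the 4 groups of these libraries in view, so their values are given as a description and without a test. All 5 passed the filter on low counts, Il6 only through the knockout libraries. It had 14 to 20 reads in each conventional and 33 to 87 in each regulatory knockout library. Each symbol matched 1 row of the table.

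The libraries were made from polyadenylated RNA of conventional (con) and regulatory (Trg) T cells of mice that were wild type (WT) or lacked coronin 1 (KO, genotype Coro1-/- in the labels, gene Coro1a), an actin-binding protein of leukocytes. Each of the 4 groups, WT con, KO con, WT Trg and KO Trg, had 3 libraries. The series title places the work in allograft rejection, and no treatment, age, strain, organ or sorting strategy was given for any group. The labels do not say that the 3 libraries of a group came from separate mice, so p-values here measure the spread between libraries, which may be technical.

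IL-6 binds IL-6Rα, and the pair then recruits gp130, which is shared with IL-27, LIF, oncostatin M and other cytokines of the family. JAK kinases bound to gp130 phosphorylate STAT3, and STAT3 in turn induces SOCS3, which binds gp130 and JAK and stops the signal. In T cells IL-6 is known for opposing regulatory T cell induction and, with TGF-β, for driving the T helper 17 programme, and naive T cells are known to carry both receptor chains and to lose IL-6Rα on activation.

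The genes lie on 4 autosomes of the mouse genome build GRCm38, and each is protein coding in GENCODE M21. Il6 (ENSMUSG00000025746) spans chr5:30013114-30019981 on the plus strand, Il6ra (ENSMUSG00000027947) chr3:89864059-89913196 on the minus strand, and Il6st (ENSMUSG00000021756) chr13:112464070-112510086 on the plus strand. Stat3 (ENSMUSG00000004040) spans chr11:100885098-100939540 and Socs3 (ENSMUSG00000053113) chr11:117966079-117970047, both on the minus strand. Stat3 shares 72 bases with Stat5a and Il6ra shares 242 exonic bases with the antisense gene Gm42809, in both cases on opposite strands, which the stranded counting separates.

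The stretches upstream of the RefSeq start sites of Il6 and Socs3 (build GRCm38.p6, strand of the gene) are shown because Il6 had the largest fold difference between genotypes and Socs3 is the member that STAT3 is known to induce. Capitals mark matches on either strand to 5 short motifs: TTCNNNGAA (STAT), GGANTTTCC (NF-κB), TGANTCA (AP-1), TGACG (a cAMP response element half-site) and TTGNNCAA (C/EBP). The Il6 stretch is chr5:30012864-30013113, plus strand, and the Socs3 stretch is chr11:117969452-117969616, minus strand, which ends 86 bases before the start because GENCODE M21 places an exon in the rest. This Socs3 stretch is upstream of the RefSeq start only: it lies inside the span that GENCODE M21 gives for the gene, which begins at 117970047 on the minus strand.
Il6: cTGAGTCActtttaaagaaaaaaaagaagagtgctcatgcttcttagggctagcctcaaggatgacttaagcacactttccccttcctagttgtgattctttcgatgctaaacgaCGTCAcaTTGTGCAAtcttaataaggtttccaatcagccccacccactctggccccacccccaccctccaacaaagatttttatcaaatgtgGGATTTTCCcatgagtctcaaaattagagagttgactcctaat
Socs3: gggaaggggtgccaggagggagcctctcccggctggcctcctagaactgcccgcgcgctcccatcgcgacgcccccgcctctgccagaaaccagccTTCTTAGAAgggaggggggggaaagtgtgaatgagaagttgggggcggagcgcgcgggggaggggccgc

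Within the 250 bases before its start, Il6 held 4 of the 5 motifs, each once and without overlap. The AP-1 match began 249 bases before the start, the half-site match (on the minus strand) 135, the C/EBP match 128 and the NF-κB match 43 bases before it. Socs3 held the STAT motif, beginning 154 bases before its RefSeq start, and no other. Il6ra held 1 half-site match, 236 bases before its start, and these letters were not in the windows of Il6st and Stat3. Among 32851 RefSeq windows of 250 bases, 1.07% held the NF-κB motif, 5.65% the C/EBP motif, 6.75% the AP-1 motif, 7.02% the STAT motif and 17.8% the half-site. The Il6 window had 42.8% G and C, against 60.8 to 71.6% in the other 4. A match describes the letters, not a bound site.

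The libraries held 19686870 to 33404302 reads in genes, so that 1 read equalled 0.0277 to 0.0541 CPM (gene reads scaled to a common library size, with TMM factors). Coro1a had 2123 to 2711 CPM in the WT libraries and 20.9 to 47.2 CPM in the KO libraries. The share of gene reads from the mitochondrial genome was 1.44 to 2.33% in con libraries and 5.16 to 8.15% in Trg libraries. The share of all reads that the stranded counting gave to no feature was 13.3 to 15.7% in con and 4.98 to 6.87% in Trg libraries. WT Trg replicate 3 and KO Trg replicate 1 held both Xist and Y-linked reads, and comparisons that use them are also given without both. The regulatory T cell markers (6 genes, Foxp3 and Il2ra among them) summed to 2045 to 2952 CPM in Trg libraries, 256 to 403 CPM in WT con and 682 to 902 CPM in KO con.

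Markers of other cells differed between the groups. The 6 B cell markers (Cd79a and Ms4a1 among them) summed to 2.88 to 4.14 CPM in WT con, 24.2 to 40.8 CPM in KO con, 2988 to 4176 CPM in WT Trg and 3209 to 3925 CPM in KO Trg. The 8 macrophage and monocyte markers summed to 213 to 278, 1392 to 3087, 690 to 900 and 746 to 1550 CPM in the same order, and the 7 neutrophil markers to 4.74 to 12.4, 351 to 694, 56.1 to 103 and 109 to 238 CPM. The 7 T cell markers went the other way, with 4238 to 4558 CPM in WT con, 2617 to 3119 in KO con, 2102 to 2870 in WT Trg and 1419 to 2119 in KO Trg. Every marker on these lists was above 0 in each group. Of all 12 marker lists only Tnfrsf17 (plasma cells, WT con) and Pdgfra (stroma, both con groups) were at 0 throughout a group. In RNA of bulk samples, fewer cells of a type and less RNA per cell cannot be told apart.

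**Figure D1:**
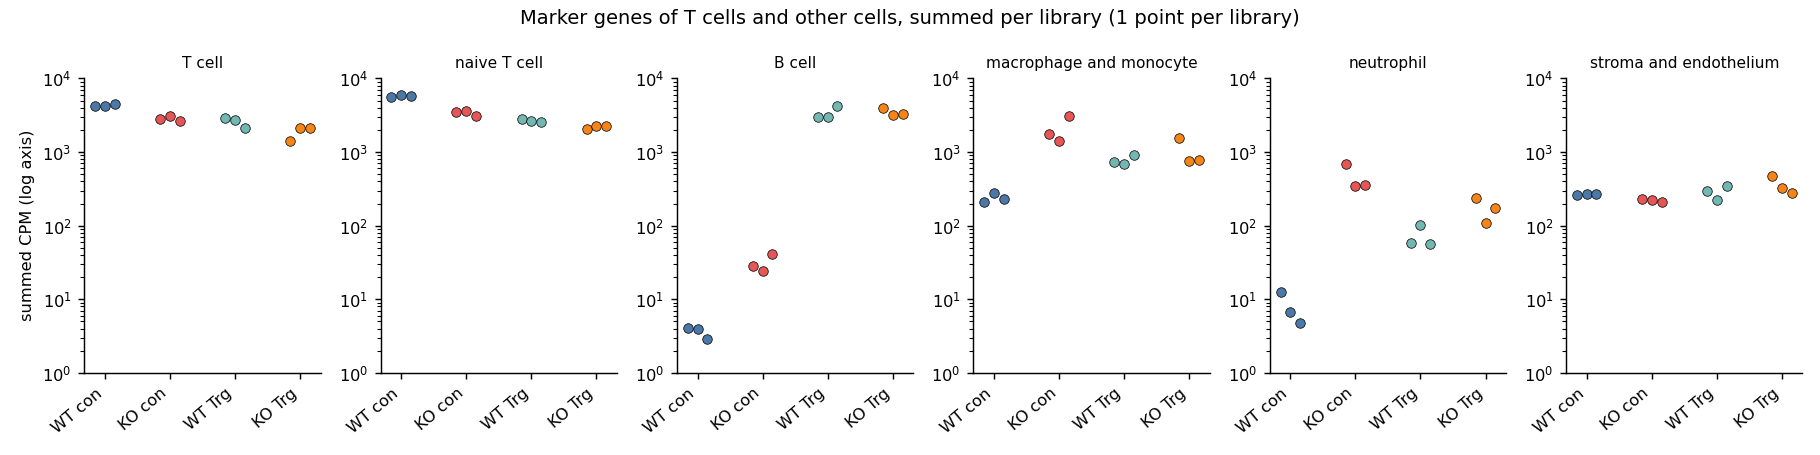
Summed CPM (log axis) of marker lists of T cells, naive T cells, B cells, macrophages and monocytes, neutrophils, and stroma and endothelium, 1 point per library in the 4 groups. B cell markers were at 2988 to 4176 CPM in the WT Trg libraries against 2.88 to 4.14 CPM in WT con, and each KO con library had a higher neutrophil sum (351 to 694 CPM) than any other library.

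Il6, the ligand, was close to the detection limit in both WT groups and higher in both KO groups. WT con libraries held 0, 0.130 and 0.0320 CPM, from 0, 4 and 1 reads, and WT Trg libraries held 0, 0.162 and 0.161 CPM, from 0, 5 and 5 reads. The 2 libraries without a read allow up to 0.101 CPM (WT con) and 0.162 CPM (WT Trg) at 3 counts, by counting error only. KO con libraries held 0.388, 0.457 and 0.608 CPM, from 14, 16 and 20 reads.

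KO Trg libraries held 2.19, 0.998 and 2.64 CPM of Il6, from 70, 33 and 87 reads, and each was above every library of the other 3 groups. The mean was 1.94 ± 0.849 CPM (SD, n = 3) in KO Trg and 0.484 ± 0.112 CPM (SD, n = 3) in KO con. The log2 fold change between genotypes was 3.06 (SE 0.79) in conventional and 3.96 (SE 0.65) in regulatory T cells, and it rested on 5 summed reads in WT con and 10 in WT Trg. Without WT con replicate 2, which holds 4 of those 5 reads, the value in conventional T cells was 4.58.

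The difference between both genotype effects on Il6 was 0.90 (SE 1.28, log2), smaller than its error, and it was -0.62 without WT con replicate 2. Between cell types, Trg libraries overlapped con libraries in WT (log2 fold change 1.10, SE 1.00, and 2.61 without WT con replicate 2) and were higher in KO (2.0, SE 0.52). Even in KO Trg, Il6 stood at 0.411 to 1.09 RPKM (reads per kilobase of exon, from CPM) beside 9.22 to 10.6 RPKM for Il6ra.

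Cells other than T cells are also known to make IL-6, among them macrophages, mast cells, stromal cells and B cells. Within KO Trg, the macrophage and monocyte sum was 1550, 746 and 789 CPM and the neutrophil sum 238, 109 and 174 CPM in replicates 1, 2 and 3. The mast cell and basophil sum was 8.75, 9.88 and 18.7 CPM there, against 1.87 to 4.33 CPM in WT Trg, and the stroma and endothelium sum was 280 to 474 against 226 to 349 CPM. That last sum can rest on few genes: in WT con it was 257 to 268 CPM with 1 of 8 markers above 1 CPM in every library. The median log2 fold change of these 8 markers in KO against WT Trg was 1.36. In KO con the macrophage and monocyte sum was 1392 to 3087 CPM and the neutrophil sum 351 to 694 CPM. The mast cell and basophil sum was 14.8 to 22.2 CPM and the stroma and endothelium sum 210 to 228 CPM in KO con. The B cell sum was 24.2 to 40.8 CPM in KO con and 3209 to 3925 CPM in KO Trg. In KO against WT regulatory T cells, 0 of 8 macrophage markers, 4 of 7 neutrophil markers, 2 of 4 mast cell and basophil markers and 4 of 8 stromal and endothelial markers rose, and none of these fell (edgeR's quasi-likelihood test, adjusted p under 0.05). Their part in the Il6 values was not tested.

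**Figure D2:**
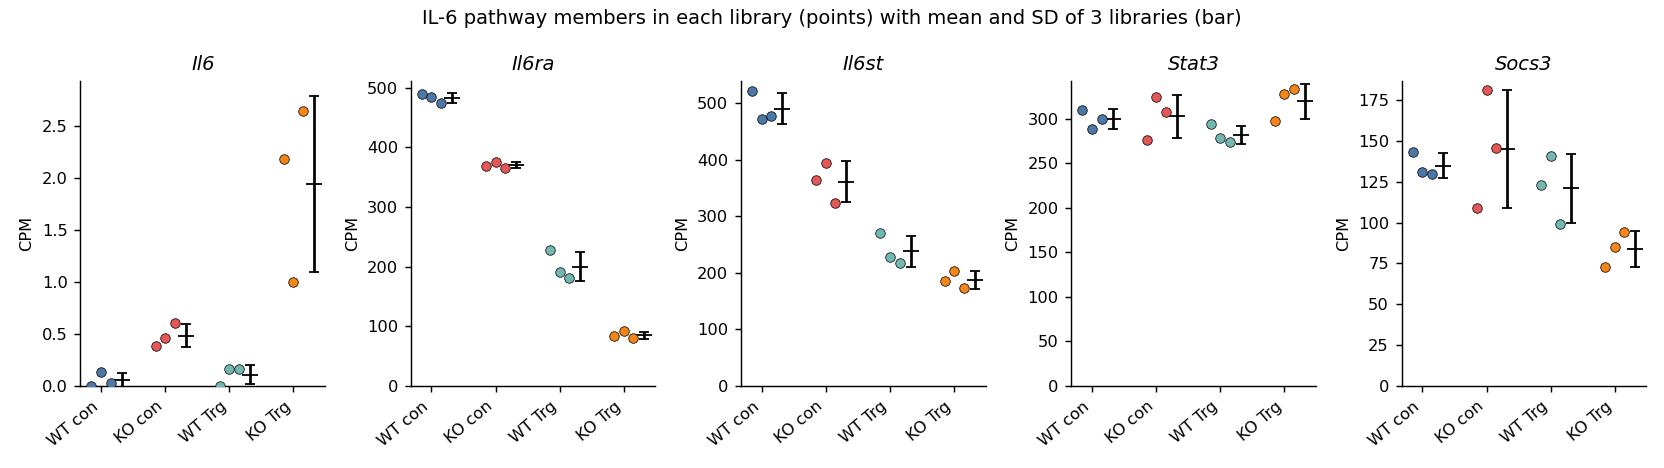
CPM of Il6, Il6ra, Il6st, Stat3 and Socs3 (1 panel each, linear axes from 0) in the 12 libraries, grouped, beside a bar for the mean and SD of each group of 3. Il6 reached 0.998 to 2.64 CPM in KO Trg, Il6ra stepped down from 474 to 489 CPM in WT con to 79.7 to 91.4 CPM in KO Trg, and Stat3 lay between 273 and 334 CPM in every library.

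Il6ra, the ligand-binding chain, was lowest in the knockout regulatory libraries, and its 4 groups did not overlap. WT con libraries held 489, 485 and 474 CPM and KO con libraries 369, 376 and 366 CPM. WT Trg libraries held 228, 191 and 181 CPM, and KO Trg libraries 84.1, 91.4 and 79.7 CPM. The group means ran in the order WT con (483 ± 7.75), KO con (370 ± 4.96), WT Trg (200 ± 24.9) and KO Trg (85.1 ± 5.94 CPM; SD, n = 3), and all neighbours were further apart than their ranges. B cell markers summed to 2988 to 4176 CPM in WT Trg and 3209 to 3925 CPM in KO Trg, against at most 40.8 CPM in con libraries. The part of such other cells in the levels of Il6ra and the other members was not tested.

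KO con thus held 76.7% of the WT con level of Il6ra, and KO Trg held 42.5% of the WT Trg level. The log2 fold change between genotypes was -0.38 (SE 0.08) in conventional and -1.23 (SE 0.08) in regulatory T cells, a difference of -0.85 (SE 0.11). Between cell types it was -1.27 (SE 0.08) in WT and -2.12 (SE 0.08) in KO. When the libraries were scaled to the summed reads of 6 genes of the T cell receptor complex and T cell surface (Lat, Cd6, Cd5 and the Cd3 genes Cd3d, Cd3e, Cd3g) in place of TMM, the genotype difference turned to 0.21 in conventional T cells and was -0.69 in regulatory T cells, while the difference between both was -0.89. Under that scaling the median log2 fold change over all genes was 0.53 for both genotype comparisons (-0.05 and 0.00 under TMM). The Il6ra value was below the median gene under both scalings. A change of scaling shifts all genes of a comparison by nearly the same amount, so its place under the second scaling follows from the first.

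Il6st, the shared chain gp130, followed Il6ra in its order of groups but not in its step between genotypes in regulatory T cells. WT con libraries held 522, 473 and 478 CPM and KO con libraries 365, 395 and 323 CPM. WT Trg libraries held 270, 228 and 218 CPM and KO Trg libraries 185, 204 and 174 CPM. No group overlapped its neighbour in this order, although the lowest WT Trg library (218 CPM) was close to the highest KO Trg library (204 CPM).

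The log2 fold change of Il6st between genotypes was -0.44 (SE 0.10) in conventional and -0.35 (SE 0.10) in regulatory T cells, and the difference of 0.10 (SE 0.14) was within its error and was -0.02 without KO Trg replicate 2. Between cell types it was -1.04 (SE 0.10) in WT and -0.94 (SE 0.10) in KO. Scaled to the 6 T cell genes, the genotype values turned to 0.14 and 0.20, with the median gene at 0.53 in both comparisons, and the cell type values were -0.42 and -0.36.

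The ratio of both receptor chains, which does not depend on how libraries are scaled, separated the knockout regulatory libraries from the other groups. Per exon length, Il6ra was 1.27 ± 0.0577 times Il6st in WT con, 1.32 ± 0.119 times in KO con and 1.08 ± 0.0103 times in WT Trg, and 0.582 ± 0.00726 times in KO Trg (SD, n = 3). The 3 KO Trg libraries gave 0.583, 0.575 and 0.590, and the other 9 libraries 1.07 to 1.45. KO con and WT con overlapped, and WT Trg lay below both. In KO Trg alone was Il6ra below Il6st per length.

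**Figure D3:**
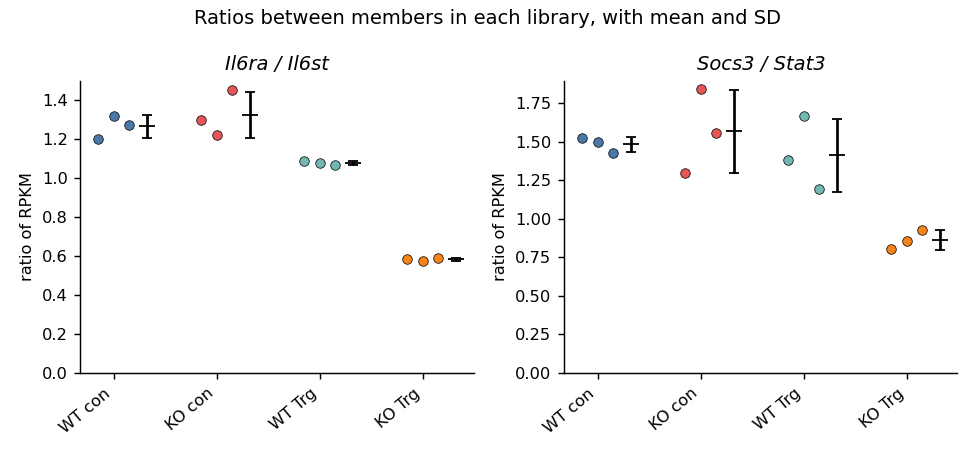
Ratio of RPKM of Il6ra to Il6st and of Socs3 to Stat3 in each of the 12 libraries (points), with the mean and SD of 3 libraries. The KO Trg libraries lie at 0.575 to 0.590 for the receptor chains and at 0.804 to 0.929 for Socs3 to Stat3, below every other library in both panels.

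Stat3, the transcription factor, was the steadiest of the 5 genes. WT con libraries held 310, 288 and 300 CPM and KO con libraries 276, 324 and 308 CPM, and these groups overlapped. WT Trg libraries held 294, 279 and 273 CPM, all below the KO Trg libraries with 298, 328 and 334 CPM, although the nearest pair stood at 294 and 298 CPM. The log2 fold change between genotypes was 0.02 (SE 0.07) in conventional and 0.18 (SE 0.07) in regulatory T cells, and between cell types -0.09 (SE 0.07) in WT and 0.08 (SE 0.07) in KO. The first turned to -0.04 without KO con replicate 2 and the last to -0.02 without KO Trg replicate 2. Scaled to the 6 T cell genes these 4 values were 0.60, 0.70, 0.55 and 0.65, beside a median gene at 0.53, 0.53, 0.71 and 0.62. Stat3 message says nothing of its phosphorylation, by which the pathway acts.

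Socs3, the feedback inhibitor, was lowest in the knockout regulatory libraries. WT con libraries held 143, 131 and 130 CPM, and KO con libraries spread around them with 109, 181 and 146 CPM. WT Trg libraries held 123, 141 and 99.1 CPM and KO Trg libraries 72.5, 85.0 and 94.1 CPM, without overlap. The log2 fold change between genotypes was 0.11 (SE 0.17) in conventional T cells, within its error, and -0.53 (SE 0.17) in regulatory T cells, with a difference of -0.64 (SE 0.24).

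In WT the cell types overlapped in Socs3 (-0.16, SE 0.17), and in KO the regulatory libraries were lower (-0.79, SE 0.17). The direction of the conventional value turned without KO con replicate 2 (-0.08). With the 6 T cell genes as the scale, the genotype values were 0.69 and -0.001, the cell type value in WT turned to 0.46, and the difference between genotype effects was -0.69. Per exon length, Socs3 was 1.48 ± 0.0493 times Stat3 in WT con, 1.57 ± 0.271 times in KO con, 1.41 ± 0.237 times in WT Trg and 0.863 ± 0.0631 times in KO Trg (SD, n = 3). Each KO Trg library lay below the other 9 in this ratio too.

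**Figure D4:**
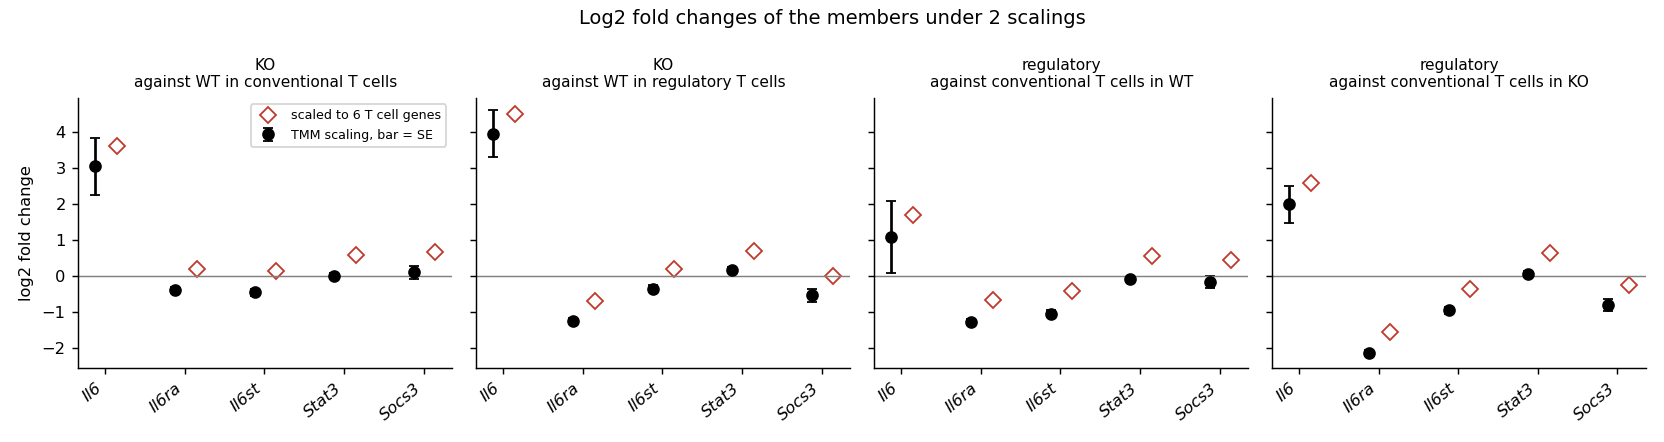
Log2 fold change of each member in the 4 comparisons, under TMM scaling (black points, bars are SE) and scaled to 6 T cell genes (open diamonds, without error). The second scaling lies higher throughout, and Il6ra and Il6st change sign for KO against WT in conventional T cells while Il6 is above 0 and Il6ra is below 0 in regulatory T cells under both.

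Counted over the 5 genes, KO con lay above WT con without overlap in 1 and below it in 2, where 28.1 and 35.5% of the 15922 genes tested did so. KO Trg lay above WT Trg in 2 and below it in 3, with 13.2 and 13.0% of the genes tested. Trg lay above con in 0 and below it in 2 in WT (39.9 and 35.4% of genes), and above in 1 and below in 3 in KO (38.6 and 34.1%). Nothing is read from these counts, since the genes were chosen with these levels in view. The median log2 fold change of the 5 genes was 0.02, -0.35, -0.16 and -0.79 in the 4 comparisons, beside -0.05, 0.00, 0.07 and 0.03 over all genes tested. Without WT Trg replicate 3 and KO Trg replicate 1, the genotype values in regulatory T cells were 4.15 for Il6, -1.29 for Il6ra, -0.40 for Il6st, 0.21 for Stat3 and -0.56 for Socs3. Between cell types, again without both of these libraries, they were 0.81, -1.20, -0.98, -0.06 and -0.03 in WT and 1.91, -2.11, -0.93, 0.13 and -0.69 in KO, in the order Il6, Il6ra, Il6st, Stat3 and Socs3.

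Per exon length, the order of levels changed between the groups. In WT con, Il6ra (55.9 ± 0.897 RPKM) led Socs3 (46.6 ± 2.61) and Il6st (44.2 ± 2.44), whose libraries overlapped, and Stat3 (31.4 ± 1.17). In KO con, Socs3 (50.2 ± 12.5 RPKM) overlapped Il6ra (42.8 ± 0.574), with Il6st (32.5 ± 3.26) and Stat3 (31.8 ± 2.54) overlapping below. In WT Trg, Socs3 (41.9 ± 7.25 RPKM) led Stat3 (29.6 ± 1.09), and Il6ra (23.1 ± 2.88) and Il6st (21.5 ± 2.48) overlapped. In KO Trg, Stat3 (33.6 ± 2.04 RPKM) and Socs3 (29.0 ± 3.74) overlapped at the top, followed by Il6st (16.9 ± 1.39) and Il6ra (9.85 ± 0.687), and Il6 was last in every group (all SD, n = 3).

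Over the 12 libraries, Pearson's r of log2 CPM between Il6ra and Il6st was 0.954, between Il6ra and Socs3 0.797 and between Il6st and Socs3 0.709. Stat3 was near 0 with Socs3 (0.003) and Il6 was at -0.71 with Il6ra. The libraries share their group, cell type and depth, so these values describe the 12 libraries. Il6ra was at 0.871 with the summed T cell markers and at -0.889 with the summed B cell markers, and Il6st at 0.904 and -0.958. Stat3 was at -0.07 and -0.01 with the same sums. With the naive T cell markers Il6ra was at 0.884 and Il6st at 0.955, and with the regulatory T cell markers at -0.831 and -0.920. The naive markers summed to 5549 to 6042 CPM in WT con and 3043 to 3587 in KO con. They summed to 2549 to 2844 CPM in WT Trg and 2041 to 2275 in KO Trg. The part of naive cells in the receptor levels was not tested.

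Among 9256 tested genes with a mean of 10 CPM or more, the 3 most like Il6ra by r of log2 CPM over the 12 libraries were Alkbh1 (0.986), Fam210a (0.983) and Gmfb (0.981). Alkbh1 held 50.6 ± 2.80 CPM in WT con, 44.3 ± 0.573 in KO con, 35.7 ± 0.743 in WT Trg and 27.6 ± 1.45 in KO Trg (SD, n = 3), a range smaller than that of Il6ra. Those most like Il6st were Slc39a14 (0.994), Wdr20 (0.993) and Esyt2 (0.993). Esyt2 held 460 ± 4.27, 322 ± 29.5, 194 ± 17.5 and 158 ± 14.8 CPM in the same order of groups (SD, n = 3), the order that Il6st showed. For Stat3 they were Myl12b (0.821), Asb8 (0.808) and Cd200r1 (0.773), and for Socs3 Plk3 (0.964), Zfpm1 (0.924) and Sh2d1a (0.914).

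The other genes of the pathway were read from 7 lists with 69 genes: other ligands, other receptor chains, receptor shedding, kinases and adaptors, inhibitors of signalling, regulators of Il6 transcription and message stability, and genes that STAT3 is known to induce. Of these, 62 passed the filter on low counts. The 7 that did not, Il11, Cntf, Ctf1, Cntfr and Il17a among them, were at most at 0.759 CPM in any library, and Il31 had 0 reads in all of them. The lists were chosen with earlier results of these data known. Their counts and medians below, beside those over all genes, are therefore a description and no test of a list.

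In conventional T cells, 31 of the 62 genes rose in KO and 9 fell, where 23.3% of all genes tested rose and 25.4% fell (edgeR's quasi-likelihood test, Benjamini-Hochberg adjusted p under 0.05). Of the 24 tested STAT3-induced genes, 16 rose and 0 fell, with a median log2 fold change of 0.88 beside -0.05 over all genes. Ahr, the aryl hydrocarbon receptor, rose from 6.29 ± 1.19 to 21.2 ± 4.89 CPM (SD, n = 3; log2 fold change 1.75, SE 0.16, adjusted p 1.18e-05). Fosl2, an AP-1 subunit, rose from 16.4 ± 1.66 to 43.0 ± 4.71 CPM (SD, n = 3; log2 fold change 1.39, SE 0.14, adjusted p 2.11e-05). Il23r, the IL-23 receptor, also rose, by 3.65 (SE 0.44, adjusted p 7.05e-05).

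Among the upstream genes, Ebi3, a subunit of IL-27 and IL-35, rose from 1.58 ± 0.0443 to 8.61 ± 2.73 CPM (SD, n = 3; log2 fold change 2.44, SE 0.20, adjusted p 5.66e-06), and Il27, its IL-27 partner, and Lif rose as well. Il27 was close to the detection limit, with 6 summed reads in WT con and 57 in KO con. Clcf1, a cardiotrophin-like ligand, fell from 138 ± 8.68 to 88.2 ± 6.40 CPM (SD, n = 3; adjusted p 0.000674). Lifr, the LIF receptor, rose from 0.195 ± 0.0828 to 6.03 ± 1.63 CPM (SD, n = 3; log2 fold change 4.91, SE 0.67, adjusted p 0.000156) and Il31ra rose by 3.19 (SE 0.49), whereas Il27ra fell by 0.62 on the log2 scale (SE 0.10). None of the 3 shedding genes (Adam10, Adam17 and Rhbdf2) passed the test.

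Of the 10 kinases and adaptors, 4 rose and 3 fell in knockout conventional T cells. Gab2, an adaptor, rose from 3.24 ± 0.717 to 25.7 ± 6.40 CPM (SD, n = 3; adjusted p 6.42e-05), and Jak1, the main gp130-bound kinase, fell from 1406 ± 29.7 to 1072 ± 53.9 CPM (SD, n = 3; adjusted p 0.000667). Of the 8 inhibitors, 3 rose and 1 fell, led by Socs2, which rose from 3.33 ± 1.33 to 12.5 ± 2.32 CPM (SD, n = 3; adjusted p 8.89e-05), and Cish, which rose by 0.53 (SE 0.10). Of the 7 regulators of Il6, 3 rose and 3 fell: Cebpb, which encodes the factor of the C/EBP motif above, rose from 2.83 ± 0.221 to 12.3 ± 1.81 CPM (SD, n = 3; adjusted p 5.85e-06), and Arid5a, which stabilises Il6 message, fell by 0.37 on the log2 scale (SE 0.07).

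The same libraries held more macrophage, neutrophil, dendritic cell, NK cell and B cell marker message. In KO against WT conventional T cells, 8 of 8 macrophage, 7 of 7 neutrophil, 6 of 6 dendritic cell, 5 of 5 NK cell, 4 of 4 mast cell and basophil and 6 of 6 B cell markers rose, 6 of 6 activated and memory T cell markers rose, and 6 of 6 naive and 7 of 7 T cell markers fell. The activated and memory sum was 225 to 304 CPM in WT con and 541 to 635 CPM in KO con. Their part in the pathway counts was not tested. Under the T cell gene scaling, 47 of the 62 pathway genes rose and 0 fell, where 7006 of 15922 genes rose and 60 fell, and Jak1 and Arid5a turned in sign.

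**Figure D5:**
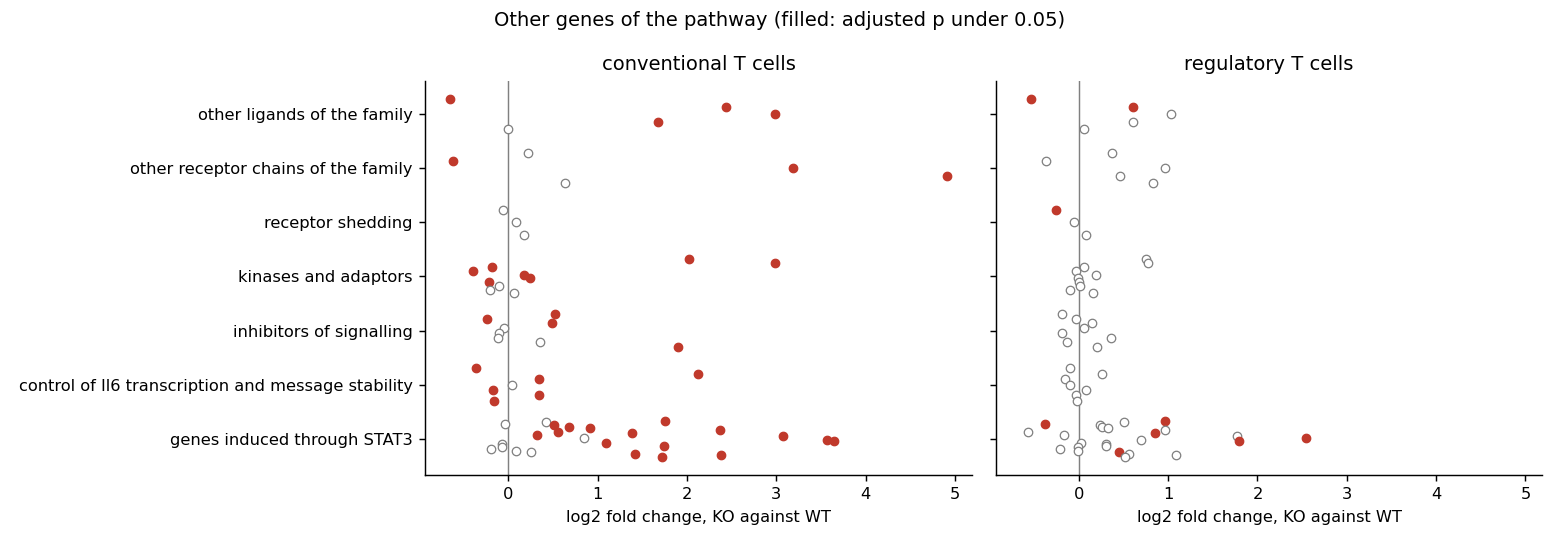
Log2 fold change between genotypes of the 62 tested pathway genes, by list (rows), in conventional and regulatory T cells on a shared axis (1 point per gene, filled where the adjusted p is under 0.05). In conventional T cells 16 of 24 STAT3-induced genes are filled, all to the right of 0, and in regulatory T cells 6 of 24.

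In regulatory T cells, 6 of the 62 genes rose in KO and 3 fell, where 4.01% of all genes tested rose and 3.82% fell. The 6 changed STAT3-induced genes were Ahr, Fosl2, Il23r, Il17f and Pim2, which rose, and Bcl2, a survival gene, which fell. Il17f was close to the detection limit, with 5 summed reads in WT Trg and 38 in KO Trg, up to 22 in a library. Ahr rose from 22.2 ± 0.543 to 43.4 ± 1.34 CPM (SD, n = 3; log2 fold change 0.96, SE 0.15, adjusted p 0.00504) and Fosl2 from 6.26 ± 0.524 to 11.4 ± 2.31 CPM (SD, n = 3; log2 fold change 0.86, SE 0.15, adjusted p 0.00754). Clcf1 fell from 64.8 ± 11.6 to 44.9 ± 2.70 CPM (SD, n = 3; adjusted p 0.0182), Ebi3 rose from 17.2 ± 1.15 to 26.3 ± 1.66 CPM (SD, n = 3; adjusted p 0.0485), and Adam10, a protease that sheds IL-6Rα, fell from 174 ± 3.23 to 146 ± 5.07 CPM (SD, n = 3; adjusted p 0.0121). No other receptor chain, kinase, adaptor, inhibitor or Il6 regulator passed the test.

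The count in regulatory T cells moved with single libraries, and so did that over all genes, of which 1246 were called. It was 3 without KO Trg replicate 3 (439 of all genes) and 14 without WT Trg replicate 3 (1974 of all genes). It was 2 when only the WT Trg and KO Trg libraries were fitted (313 of all genes) and 15 with DESeq2 (2010 of all genes). Ebi3 lost its call without WT Trg replicate 1, 2 or 3 or KO Trg replicate 1, 2 or 3 in turn (adjusted p 0.0520 to 0.139), and Clcf1 lost its call without WT Trg replicate 2 or KO Trg replicate 2 or 3 (0.0611 to 0.0689). Without both libraries with Xist and Y-linked reads the count was again 9, of which 6 were shared, a setting chosen after seeing the data. With the 6 T cell genes as the scale, 36 rose and 0 fell (5116 and 41 of all genes), and Adam10 turned in sign, to 0.27.

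Between cell types in WT, 27 of the 62 genes were higher in regulatory T cells and 15 lower, where 39.1 and 33.3% of all genes were. Cish, an inhibitor that STAT5 is known to induce, rose from 33.4 ± 2.13 to 164 ± 15.2 CPM (SD, n = 3; log2 fold change 2.29, SE 0.10, adjusted p 8.87e-09) and Socs2 by 3.53 (SE 0.24). Ebi3 rose by 3.44 (SE 0.20), Irf4, a factor of activated lymphocytes, by 3.27 (SE 0.24), and Bcl2l1, which encodes BCL-XL, by 1.56 (SE 0.12). Rc3h1, which encodes the message-decay factor Roquin-1, fell from 192 ± 5.21 to 93.8 ± 1.36 CPM (SD, n = 3; adjusted p 3.89e-08), and Jak1 and Sos1 fell by 0.83 (SE 0.07) and 1.07 (SE 0.08) on the log2 scale. All 6 B cell markers rose in the same comparison, with a median log2 fold change of 10.6, and their part in these values was not tested. Under the T cell gene scaling, 41 rose and 1 fell, where 57.3% of all genes rose and 6.07% fell.

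In KO, 23 of the 62 genes were higher in regulatory T cells and 22 lower, where 36.1 and 31.7% of all genes were. Of the 7 regulators of Il6, 5 fell and 1 rose, with Rc3h1 at -1.17 on the log2 scale (SE 0.06, adjusted p 2.83e-08) and Nfkbiz, which encodes IκBζ, at 83.3 ± 7.56 against 51.0 ± 2.68 CPM (SD, n = 3; adjusted p 4.47e-05). Of the 8 inhibitors, 5 rose and 1 fell, with Ptpn6, the phosphatase SHP-1, at 332 ± 19.5 against 675 ± 48.5 CPM (SD, n = 3; adjusted p 7.33e-06). The oncostatin M receptor gene Osmr, with 0 or 1 read in each con library, stood at 0.0188 ± 0.0163 CPM in KO con and 4.30 ± 2.32 CPM in KO Trg (SD, n = 3). B cell markers rose in 6 of 6, dendritic cell markers in 5 of 6, plasma cell markers in 3 of 4, and stromal and endothelial markers in 7 of 8. NK cell markers fell in 5 of 5, mast cell and basophil markers in 3 of 4 (1 rose), macrophage and monocyte markers in 3 of 8 and neutrophil markers in 2 of 7. The part of these other cells in the values was not tested. With the 6 T cell genes as the scale, 30 rose and 5 fell, where 52.1% of all genes rose and 6.75% fell.

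The genotype effect differed between the cell types for 20 of the 62 genes, with 5 differences above 0 and 15 below, where 8.86 and 12.4% of all genes were. Of the 8 STAT3-induced genes among them, all 8 differences were below 0. Maf rose from 49.6 ± 13.9 to 166 ± 35.4 CPM (SD, n = 3) between WT con and KO con, while its log2 fold change in regulatory T cells was 0.30 (SE 0.18; difference of the effects -1.44, SE 0.26, adjusted p 0.00323). Cebpb, at 5.37 ± 0.917 in WT Trg and 6.41 ± 0.753 CPM in KO Trg (SD, n = 3), had a difference of -1.86 (SE 0.24, adjusted p 0.000523), and Ebi3 had one of -1.83 (SE 0.26, adjusted p 0.000896). Left out in turn, WT con replicate 2 or 3, KO con replicate 3 or KO Trg replicate 2 lowered the count of 20 to 11, 10, 11 and 12, and that over all genes from 3393 to 2393, 2342, 2354 and 2311. Under the T cell gene scaling, 0 differences were above and 6 below 0, and over all genes 0.188% were above and 5.78% below. Macrophage, neutrophil and B cell markers had differences below 0 in 5 of 8, 6 of 7 and 6 of 6 genes, and their part in these differences was not tested.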

How the data were processed

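Stranded libraries of polyadenylated RNA from 12 samples were sequenced, as the series' design text states. The deposited file gives read counts per Ensembl gene, which the authors made with STAR (listed as version 1.7.20) on GRCm38, per the submitters' processing notes, counted on the reverse strand per the file's name. The annotation release is not given in the sources used here. The 4 tallies of reads given to no gene (26.2 to 30.5% of reads per library) were left out.

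Symbols, positions and exon lengths came from GENCODE M21 (45143 of 45706 genes matched), and upstream windows and their start sites from RefSeq (GRCm38.p6, all 5 members matched). Counts were scaled by TMM, and RPKM was computed from CPM and summed exon length. One edgeR (4.0.16) quasi-likelihood fit with a term per group covered all 12 libraries, for genes passing filterByExpr (minimum count 10, total 15, 15922 genes), with Benjamini-Hochberg adjustment over all of them and a threshold of 0.05. Each SE of a log2 fold change was derived from that fit, as its absolute value divided by the square root of the F statistic. The fit was also run on simulated counts in which a small set of genes changed in a single group, equally up and down. The groups here differ in far more genes and in markers of other cells, so that run does not cover such shifts. Alternatives used DESeq2 (1.42.0), limma (3.58.1), other scalings, filters and thresholds, a replicate term, and single libraries left out.

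The members, gene lists and motifs were chosen with earlier results of these data known. Named pathway genes are the called ones, with full values for at most the 4 of smallest p per list and comparison, and the 3 genes most like a member have the highest r of log2 CPM (prior count 2). The markers and the 6 T cell genes also come from an earlier look at these data. R 4.3.3, Python 3.11.15 and matplotlib 3.10.9 were used. Some genes of the lists are not reported here by name.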

Additional observations from a re-analysis of the deposited data

Results flagged for a closer look

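For 20 of the 62 tested pathway genes the genotype effect in regulatory T cells differed from that in conventional T cells (a test of the difference itself, edgeR's quasi-likelihood test, adjusted p 0.000523 to 0.0416). The values are differences of log2 fold changes, regulatory minus conventional. Among ligands and receptor chains, Ebi3 was at -1.83 and Lifr at -4.45. Among kinases and adaptors, Gab2 was at -2.21, Jak1 at 0.36, Grb2 at 0.24 and Shc1 at 0.21. Among inhibitors, Socs2 was at -1.70, Cish at -0.72 and Ptpn6 at 0.48. Among regulators of Il6, Cebpb was at -1.86, Nfkbiz at -0.50 and Rela at 0.25. Among STAT3-induced genes, Il23r was at -1.85, Maf at -1.44, Fos at -1.12, Irf4 at -1.06, Ahr at -0.79, Bcl6 at -0.59, Hif1a at -0.48 and Bcl2 at -0.34. Under the T cell gene scaling 6 of the 20 kept their call, all of them below 0, so that none of the 5 differences above 0 did, where the calls over all genes went from 3393 to 951. Lifr lost its call with limma-voom (adjusted p 0.104).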

How the results depend on the processing

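Pathway genes called numbered 40, 9, 42, 45 and 20 (genotype in conventional and in regulatory T cells, cell type in WT and in KO, difference of genotype effects). With the replicate number as a block they were 40, 9, 43, 44 and 16. Deviations of same-numbered libraries from their group means had correlations of -0.52 to 0.18, which cannot settle whether the numbers pair the libraries. RLE and upper-quartile factors, limma-voom, no filter and a minimum count of 50 left each count within 1.5 times, though the split changed for the difference of effects with upper-quartile factors (1 above and 16 below 0, against 5 and 15) and for the genotype in regulatory T cells with RLE factors (5 higher and 4 lower, against 6 and 3). In regulatory T cells the genotype count was 36 scaled to the 6 T cell genes (36 higher, 0 lower, against 6 and 3), 15 with DESeq2, 2 with only the groups compared, 2 at adjusted p under 0.01, 5 with at least 1.5-fold, and 3 to 14 with single libraries left out. Over all genes the count was 1246, and under the same settings 5157, 2010, 313, 253, 562 and 439 to 1974. The difference count was 6 scaled to the 6 T cell genes, 8 at 0.01, 12 with 1.5-fold and 10 to 21 with single libraries left out, beside 951, 1425, 2018 and 2311 to 3793 of all genes, against 3393. At least 1.5-fold left 24 in conventional T cells and 27 between cell types in KO. Single libraries left out gave 35 to 41 in conventional T cells, 41 to 44 between cell types in WT and 42 to 47 in KO. With the 6 T cell genes as the scale, signs turned for Arid5a (0.22) and Jak1 (0.20) in conventional T cells and for Adam10 between genotypes (0.27) and cell types in KO (0.37). Without both libraries with Xist and Y-linked reads the counts between cell types were 42 and 46 and the difference count 19. Of 902 values of named genes under alternatives, 861 kept direction and call, 37 lost the call and 4 turned. Il6 in WT rests on 0 to 5 reads per library, so depth limits its fold changes.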
